A study of Mus musculus with 9 samples.

Results

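Klf2, Ccr7, Txnip, Sesn1, Sesn3, Btg1, Ccng2, Tob1 and Klf3 are genes that FoxO transcription factors switch on or that are linked to quiescence, the resting state of lymphocytes. Of these 9 listed genes, 8 had a probe set annotated to a single gene and were measured, with 20 probe sets among the 28898 single-gene probe sets and 8 of the 17097 genes of the array. Ccr7, a chemokine receptor of naive and memory T cells, was not analysed here. For each gene the main value comes from its brightest probe set, judged by the mean of the 9 arrays, and its other probe sets are given beside it. The cells were splenic CD8+ T cells that recognise OVA (ovalbumin, a widely used test antigen), sorted on day 9 of a Listeria monocytogenes infection, and the RNA of each sample was read on 1 array. The 5 Tsc1-/- samples came from C57BL/6 mice with floxed Tsc1 alleles and cre under Granzyme B, and the 4 WT samples from C57BL/6 mice with the same floxed alleles and no cre. Granzyme B is made by activated cytotoxic cells, so this cre acts in cells that have been activated, and loss of Tsc1 and presence of cre cannot be told apart. The sources do not say whether each sample is a separate animal, so the p-values reflect the spread among these 9 samples, and precision is limited by their number.

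FoxO factors are held in the cytoplasm when Akt, a kinase downstream of PI3K, phosphorylates them, and they enter the nucleus and switch on their targets when Akt is quiet. Resting T cells use this arm to keep homing receptors, cell cycle brakes and nutrient sensors expressed, and strong activation lowers many of them. TSC1 restrains mTORC1, a kinase complex that feeds back on the PI3K and Akt arm. The comparison sets FoxO target genes beside the genes of their upstream input. The arrays measure mRNA and hold no measure of Akt activity or of where FoxO proteins lie in the cell.

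The promoters of the members are shown first because FoxO factors act through a short DNA element that can be searched for. Windows of 250 bases before to 50 bases after the start site, from RefSeq on GRCm38.p6, matched all 8 measured members, with 9 windows since Sesn1 has 2. The core of the FoxO binding element, GTAAACA, was searched on both strands, reading TGTTTAC on the opposite one. It lay in 3 of the 9 windows, 1 each of Txnip, Btg1 and Sesn1. The share was 3.65% of all 32851 windows and 2.965% of those of measured genes. The longer form GTAAACAA, which contains the core, lay in 2 of the 9, those of Txnip and Btg1. The share was 1.23% of all windows and 1.008% of those of measured genes. The core began 121 bases before the start site in Txnip, 204 bases before it in Btg1 and 22 bases after it in the first Sesn1 window. A core known from insulin-responsive genes, CAAAACA, was searched likewise and lay in 1 of the 9 windows, that of Ccng2, 16 bases before the start. The share was 6.28% of all windows and 4.7% of those of measured genes. The windows that follow run 5′ to 3′ on the plus strand, with the core in capitals, for the 3 members that hold it and for Klf2, which does not hold it and had the smallest p-value among the members. The E-box CACGTG lay in 0 of the 9 windows, against 7.15% of all windows and 8.69% of those of measured genes. The members were listed partly as FoxO targets, and these counts were not tested. A match describes letters in this window only.
Txnip, chr3:96557707-96558006: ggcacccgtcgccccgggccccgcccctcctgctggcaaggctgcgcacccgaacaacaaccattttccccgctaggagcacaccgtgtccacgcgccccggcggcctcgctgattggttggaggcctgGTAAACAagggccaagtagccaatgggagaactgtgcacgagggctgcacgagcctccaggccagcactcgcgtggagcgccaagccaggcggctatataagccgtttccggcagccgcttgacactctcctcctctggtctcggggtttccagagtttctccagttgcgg
Btg1, chr10:96616751-96617050: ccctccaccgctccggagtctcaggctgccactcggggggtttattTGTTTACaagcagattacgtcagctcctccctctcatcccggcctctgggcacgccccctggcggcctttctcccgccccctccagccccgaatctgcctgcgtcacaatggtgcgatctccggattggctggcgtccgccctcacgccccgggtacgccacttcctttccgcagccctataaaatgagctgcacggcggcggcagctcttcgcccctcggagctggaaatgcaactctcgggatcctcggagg
Sesn1, chr10:41810324-41810623: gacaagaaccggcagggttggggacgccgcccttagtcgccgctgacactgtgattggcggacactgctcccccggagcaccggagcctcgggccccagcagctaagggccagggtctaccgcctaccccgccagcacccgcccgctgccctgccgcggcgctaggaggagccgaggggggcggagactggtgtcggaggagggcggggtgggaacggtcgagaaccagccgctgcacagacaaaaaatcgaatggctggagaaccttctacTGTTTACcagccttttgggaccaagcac
Klf2, chr8:72318812-72319111: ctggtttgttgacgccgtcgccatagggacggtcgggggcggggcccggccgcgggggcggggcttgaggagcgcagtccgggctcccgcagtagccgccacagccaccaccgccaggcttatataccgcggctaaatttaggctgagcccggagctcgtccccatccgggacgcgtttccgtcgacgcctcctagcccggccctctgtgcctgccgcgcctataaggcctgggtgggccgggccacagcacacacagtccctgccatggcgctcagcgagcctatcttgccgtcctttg

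None of the 8 measured members passed an adjusted p of 0.05 (limma, Benjamini-Hochberg over all 17097 genes), against 1.28% of all genes tested. None had an unadjusted p under 0.05 either, a level reached by 17.2% of all genes, and no member separated the genotypes, against 7.96% of all genes. By direction, 5 members lay lower and 3 higher on average in Tsc1-/- cells, with Sesn3 counted as higher at only 0.002. Their median log2 difference, Tsc1-/- minus WT, was -0.05, and that of all genes was -0.01. Txnip, Klf2 and Klf3 had the most negative differences, Sesn1 and Tob1 the most positive, and Sesn3, Ccng2 and Btg1 lay closest to 0. Differences below are on the log2 scale, with limma's moderated standard error (SE), and levels are log2 RMA values that are comparable between arrays but not between genes. In RNA from a bulk sort, fewer cells of a type and less RNA per cell cannot be told apart. A p above the threshold does not show that a gene was equal in both genotypes.

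Klf2 encodes a zinc finger factor that keeps naive T cells quiescent and drives receptors that guide lymphocytes through blood and lymph nodes. Its level was 9.93, 10.63, 10.64, 10.35 and 10.56 in Tsc1-/- replicates 1 to 5, against 10.84, 10.77, 10.51 and 10.71 in WT replicates 1 to 4. Tsc1-/- replicates 1 and 4 lay below every WT array, and the other Tsc1-/- arrays lay between WT replicate 3 and WT replicate 4. Klf2 averaged 10.42 ± 0.30 in Tsc1-/- cells (SD, n = 5) and 10.71 ± 0.14 in WT cells (SD, n = 4), and the difference was -0.29 (SE 0.14). Its adjusted p was 0.317 (limma) and its exact two-sided permutation p was 0.103. The level in Tsc1-/- cells was 81.9% of that in WT cells, with a 95% interval of 66.4% to 101%. Without Tsc1-/- replicate 1 the difference was -0.16.

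Klf3 encodes a related zinc finger factor that mostly represses, through the corepressor CtBP. It read 10.62, 11.33, 11.24, 11.24 and 11.18 in Tsc1-/- replicates 1 to 5, against 11.50, 11.37, 11.36 and 11.18 in WT replicates 1 to 4. Tsc1-/- replicate 1 lay far below all other arrays, and the other 4 Tsc1-/- arrays lay below 3 of the 4 WT arrays. The difference was -0.23 (SE 0.13, adjusted p = 0.410, limma), or 85.3% of the WT level with a 95% interval of 69.7% to 104%. All 6 probe sets of Klf3 had a negative difference, between -0.18 and -0.45, and none passed the threshold over all probe sets. The most negative was the dimmest one. Without Tsc1-/- replicate 1 the difference was -0.10. Taken within each array, the Klf2 change minus the Klf3 change was -0.06 (exact permutation p = 0.5), so unequal changes of these relatives were not shown.

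**Figure D1:**
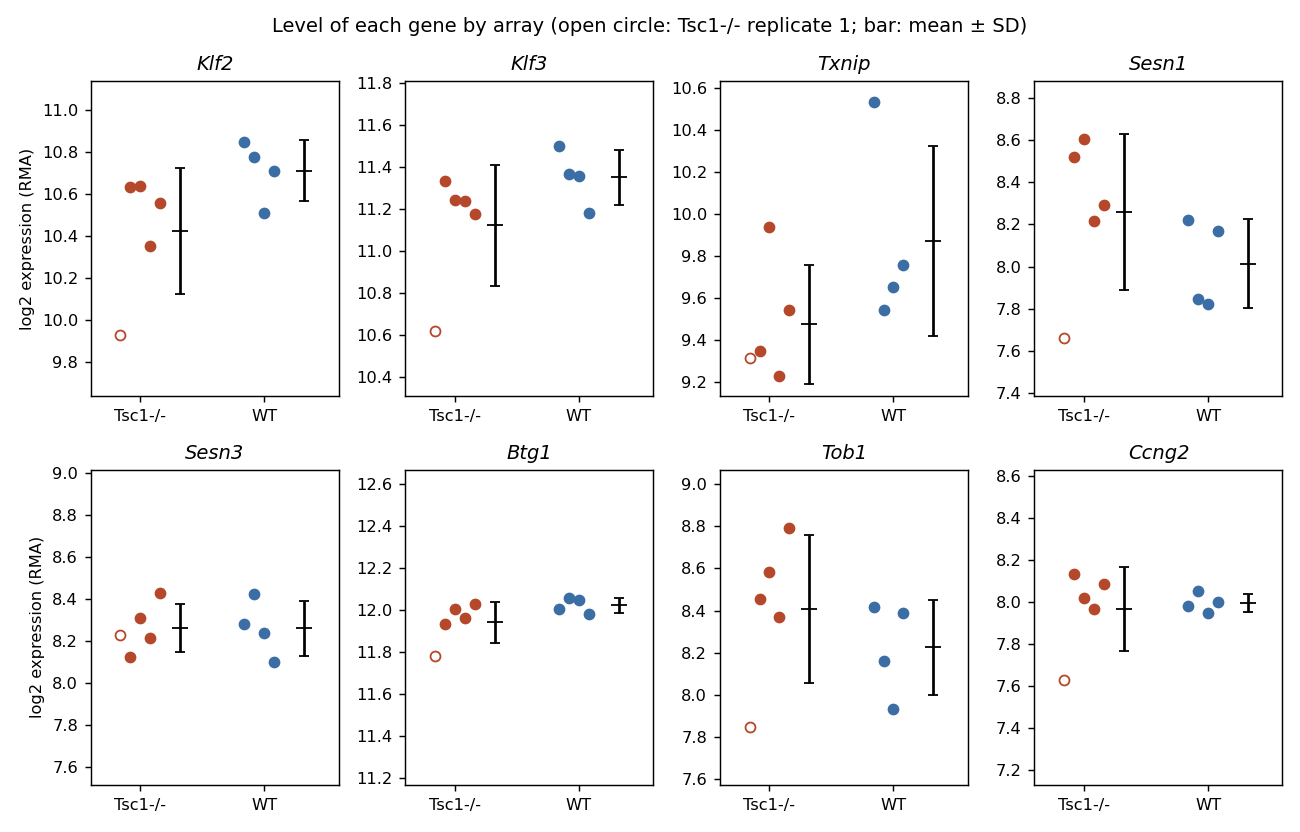
Log2 RMA level of the 8 measured genes in each of 5 Tsc1-/- arrays (left) and 4 WT arrays (right), with the mean ± SD as a bar. All panels span the same height, the groups overlap in every panel, and the open circle, Tsc1-/- replicate 1, is the lowest array of all 9 for 6 genes.

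Among the nutrient and stress sensors, Txnip encodes an arrestin-like protein that binds thioredoxin and limits glucose uptake. Txnip read 9.31, 9.35, 9.94, 9.23 and 9.54 in Tsc1-/- replicates 1 to 5, against 10.53, 9.54, 9.65 and 9.76 in WT replicates 1 to 4. WT replicate 1 stood above all other arrays, while Tsc1-/- replicate 3 lay above WT replicates 2 to 4. Its difference of -0.40 was the furthest from 0 among the 8 members (SE 0.20, adjusted p = 0.323, limma; exact permutation p = 0.127), or 76.0% of the WT level with a 95% interval of 56.6% to 102%. The further Txnip probe set differed by -0.35. Without WT replicate 1 the Txnip difference was -0.17, and without Tsc1-/- replicate 3 it was -0.51.

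Sestrins bind the GATOR2 complex and restrain mTORC1, and FoxO factors induce Sesn1 and Sesn3. Sesn1 read 7.66, 8.52, 8.61, 8.22 and 8.29 in Tsc1-/- replicates 1 to 5, against 8.22, 7.84, 7.82 and 8.17 in WT replicates 1 to 4. Tsc1-/- replicate 1 was the lowest of the 9 arrays, and 3 of the other 4 Tsc1-/- arrays were the highest. The difference was 0.25 (SE 0.17, adjusted p = 0.497, limma), with a 95% interval of -0.13 to 0.62. Its other 2 probe sets differed by 0.32 and 0.34, and without Tsc1-/- replicate 1 the main one differed by 0.40 (adjusted p = 0.132, limma).

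Sesn3 read 8.23, 8.12, 8.31, 8.21 and 8.43 in Tsc1-/- replicates 1 to 5, against 8.28, 8.42, 8.24 and 8.10 in WT replicates 1 to 4. The genotypes covered almost the same range. The difference was 0.00 (SE 0.09, adjusted p = 0.995, limma), and its 95% interval of -0.19 to 0.20 limits a change of this probe set to between 87.5% and 115% of the WT level. The further Sesn3 probe set differed by -0.14 (exact permutation p = 0.0556), while the main one lay too near 0 to give a sign. The Sesn1 change minus the Sesn3 change was 0.24 (exact permutation p = 0.349), which does not show that these sestrins changed unequally. Sesn2, the stress-induced sestrin outside the members, differed by 0.39 (SE 0.14, adjusted p = 0.167, limma).

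The antiproliferative members are Btg1 and Tob1, which belong to the same family and bring the CCR4-NOT deadenylase to mRNAs, and Ccng2, a cyclin that opposes cell cycle progression. Btg1 varied least within a genotype, at 11.78, 11.93, 12.00, 11.96 and 12.03 in Tsc1-/- replicates 1 to 5, against 12.00, 12.06, 12.05 and 11.98 in WT replicates 1 to 4. Only Tsc1-/- replicates 1, 2 and 4 lay below all WT arrays. The difference was -0.08 (SE 0.08, adjusted p = 0.641, limma), with a 95% interval of 84.4% to 106% of the WT level.

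A second Btg1 probe set gave a different picture. It read 10.09, 9.998, 10.23, 10.31 and 10.21 in Tsc1-/- replicates 1 to 5, against 10.42, 10.62, 10.45 and 10.33 in WT replicates 1 to 4. All Tsc1-/- arrays lay below all WT arrays. It was the only probe set of the 20 to separate the genotypes, against 7.21% of all 28898 probe sets. The difference was -0.29 (SE 0.09, exact permutation p = 0.0159, adjusted p = 0.147 over all probe sets, limma), so it did not pass the threshold. In all, 0 of the 20 probe sets passed, against 0.827% of all probe sets, and 3 of the 20 had an unadjusted p under 0.05, against 16% (limma). The other 2 of those 3 were a Sesn1 probe set at 0.32 and the dimmest Klf3 probe set at -0.45. Which part of the Btg1 transcript each probe set reads was not analysed here.

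Tob1 read 7.85, 8.45, 8.58, 8.37 and 8.79 in Tsc1-/- replicates 1 to 5, against 8.42, 8.16, 7.93 and 8.39 in WT replicates 1 to 4. Tsc1-/- replicate 1 was again the lowest array and Tsc1-/- replicate 5 the highest. The Tob1 difference was 0.18 (SE 0.17, adjusted p = 0.620, limma), with a 95% interval of -0.18 to 0.55, and 0.33 without Tsc1-/- replicate 1. The further Tob1 probe set, dim at a mean level of 4.19, differed by 0.04. The main difference turned to -0.04 with the mean level of macrophage markers in each array as a covariate and to -0.07 with the B cell marker level. Within arrays, the Btg1 change minus the Tob1 change was -0.26 (exact permutation p = 0.167).

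Ccng2 read 7.63, 8.13, 8.02, 7.97 and 8.09 in Tsc1-/- replicates 1 to 5, against 7.98, 8.05, 7.95 and 7.998 in WT replicates 1 to 4. Apart from Tsc1-/- replicate 1, which was lowest, the arrays of both genotypes were interleaved. The difference was -0.03 (SE 0.10, adjusted p = 0.914, limma), with a 95% interval of 84.2% to 114% of the WT level. The further Ccng2 probe set differed by 0.12, and leaving out Tsc1-/- replicate 1 gave 0.06 for the main one.

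**Figure D2:**
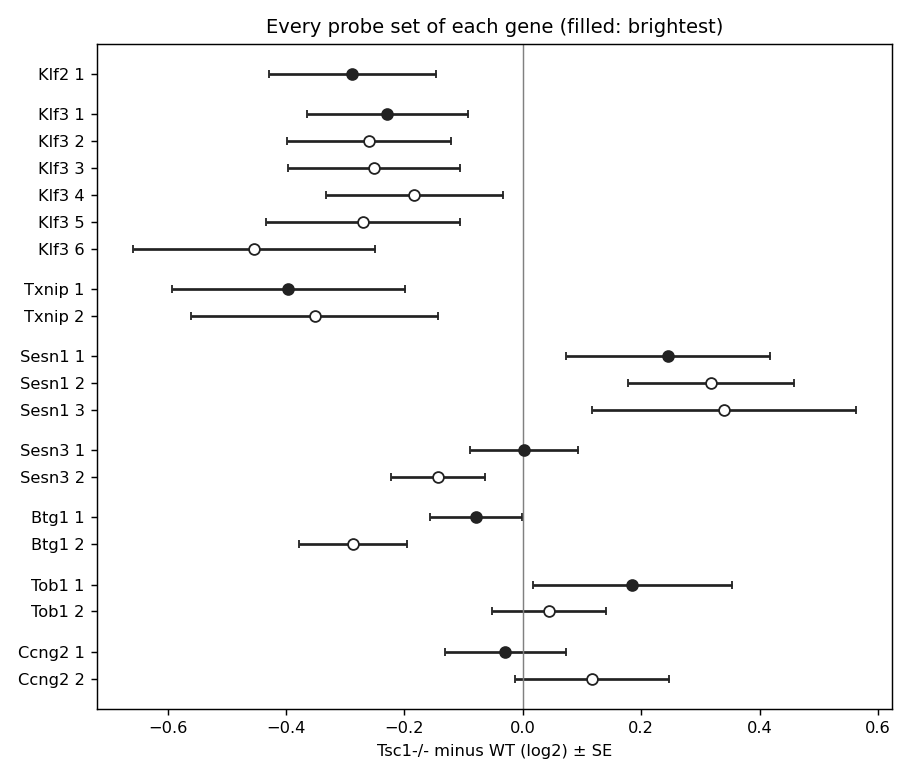
Log2 difference, Tsc1-/- minus WT, with SE, for all 20 probe sets of the 8 genes, ordered by mean level within a gene, with the brightest filled. The 6 probe sets of Klf3 all lie below 0 and the 3 of Sesn1 all above 0. Those of Ccng2 lie on both sides of 0, and the brightest of Sesn3 lies at 0.00.

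Several members varied widely between arrays of one genotype. The pooled SD within a genotype was 0.37 for Txnip, 0.31 for Sesn1 and 0.30 for Tob1, larger than for 98.4%, 97.2% and 96.8% of the 8549 genes at or above the median level of 6.34. Klf2 at 0.25 and Klf3 at 0.23 exceeded 92.0% and 90.2% of these genes, against a median SD of 0.14. In contrast, Btg1 at 0.08 exceeded only 10.1% of them.

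One array stood apart in most members. Tsc1-/- replicate 1 was the lowest of all 9 arrays for Klf2, Klf3, Sesn1, Btg1, Tob1 and Ccng2, which is 6 of 8 members, against 16.4% of the genes at or above the median level. All 8 members lay below their genotype mean in that array, by 0.36 on average, while the median deviation of the genes at or above the median level was -0.01 there. Deviations were -0.60 for Sesn1, -0.56 for Tob1, -0.50 for Klf3 and -0.49 for Klf2. The 8 members averaged 9.12 in Tsc1-/- replicate 1, 9.44 to 9.67 in the other Tsc1-/- arrays and 9.44 to 9.72 in WT arrays. This was not particular to the members. The other quiescence-linked genes described below averaged 9.20 in that array and 9.32 to 9.60 in the rest, and the homing genes 8.24 against 8.33 to 8.46. The other FoxO targets did not share it, since Tsc1-/- replicate 1 read 8.04, within the 7.99 to 8.11 of the other Tsc1-/- arrays. That array also had the highest mean level of the proliferation markers, at 9.27, against 8.76 to 8.92 in the other Tsc1-/- arrays and 7.96 to 8.65 in WT arrays. The part of proliferation in the low members of Tsc1-/- replicate 1 was not tested.

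**Figure D3:**
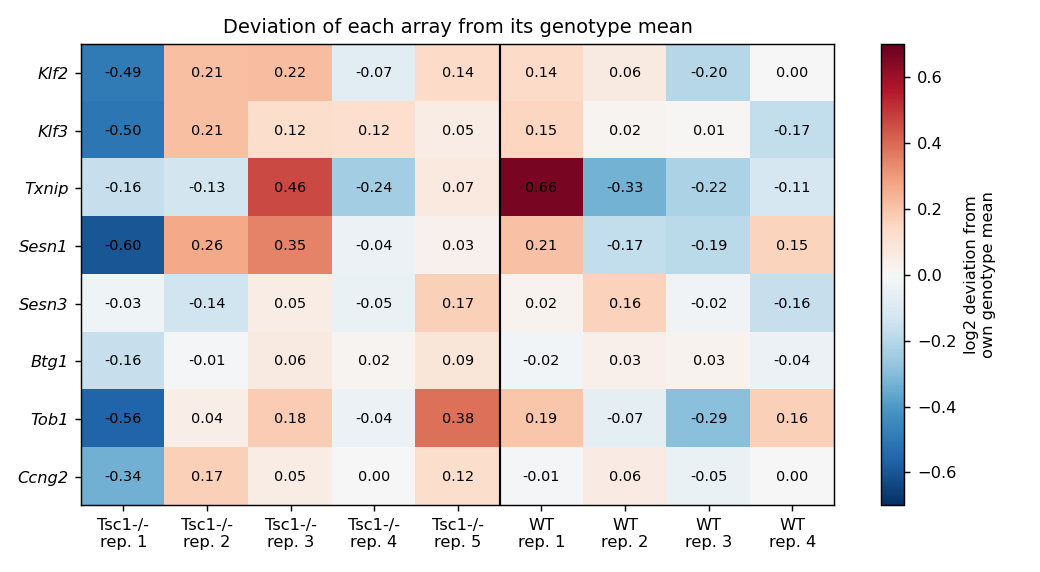
Deviation of each array from the mean of its own genotype on the log2 scale, for the 8 genes (down) in 5 Tsc1-/- and 4 WT arrays (across, split by the black line). The column of Tsc1-/- replicate 1 is negative for all 8 genes, and the largest positive deviation is that of Txnip in WT replicate 1, at 0.66.

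The members' deviations were also compared pair by pair, with and without that array. Pearson's r of the deviations over 9 arrays was 0.92 for Klf2 with Ccng2, 0.91 for Klf2 with Sesn1 and 0.85 for Klf2 with Klf3. Without Tsc1-/- replicate 1 these were 0.65, 0.72 and 0.33. Btg1 with Ccng2 gave 0.82 with that array and -0.04 without it. Of the 28 pairs, r was lower without that array in 22 and higher in 6, among them Sesn3 with Btg1, at 0.51 with it and 0.88 without it, and Txnip with Sesn1, at 0.57 with it and 0.73 without it. Over all 9 arrays Sesn3 had r between -0.13 and 0.24 to all but Btg1. These values describe 9 arrays that share their normalization.

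Over the same deviations, the genes most like each member among the 8548 others at or above the median level were the following. Klf2 was most like Rbm42 (r = 0.98), AI847159 (0.98) and Dcp1b (0.96), and Klf3 was most like S1pr5 (0.98), Ypel5 (0.97) and Nod1 (0.96). Txnip was closest to Mepce (0.97), Polr2a (0.94) and Tiparp (0.92). Sesn1 was closest to Rnf25 (0.96), Tef (0.95) and Sgk1 (0.94), and Sesn3 to Ppp1r16a (0.97), Rtf1 (0.97) and Coa8 (0.94). For Btg1 the nearest were Pkd2l2 (0.99), Mbtd1 (0.98) and Serf2 (0.97), for Tob1 Vsir (0.98), Dpp7 (0.96) and Coro7 (0.96), and for Ccng2 Gabarap (0.99), Fcgr2b (0.98) and Smpdl3b (0.98). Each is among the 3 highest of 8548 values over 9 arrays, and no 2 members shared a gene among their nearest. Tsc1-/- replicate 1 was the lowest array for every gene nearest to Klf3, Sesn1, Btg1, Tob1 and Ccng2, and for AI847159 and Dcp1b. S1pr5, for example, read 10.12 there and 10.90 to 11.19 in the other Tsc1-/- arrays. By level, Tsc1-/- replicate 1 was not the lowest of the 9 arrays for Rbm42 or for the genes nearest to Txnip and Sesn3. Among Tsc1-/- arrays alone it was the lowest for Rbm42, at 9.15 against 9.27 to 9.36, and for Mepce and Tiparp. These r values were not computed without that array.

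On the input side, the FoxO factor genes and the PI3K, Akt and mTORC2 genes also had no member past the threshold. Foxo1, the main FoxO factor of T cells, read 7.40 to 7.62 in Tsc1-/- arrays and 7.38 to 7.58 in WT cells, a difference of 0.02 (95% interval -0.15 to 0.20). Foxo3 differed by 0.00 (95% interval -0.22 to 0.23) and Foxo4 by 0.08 (95% interval -0.09 to 0.24). Of the 17 measured genes of the PI3K, Akt and mTORC2 list, 9 were higher and 8 lower on average, with a median of 0.00. At an unadjusted p under 0.05, 2 of the 17 were higher and 2 lower (limma), where 17.2% of all genes reach this level, so the count is near the background.

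The Akt genes were not shown to be equal between genotypes. Akt1 read 8.72, 8.34, 8.60, 8.58 and 8.51 in Tsc1-/- replicates 1 to 5, against 8.21, 8.23, 8.24 and 8.37 in WT replicates 1 to 4. Only Tsc1-/- replicate 2 lay below a WT array, WT replicate 4. The Akt1 difference was 0.29 (SE 0.09, 95% interval 0.10 to 0.48, adjusted p = 0.114, limma) and that of Akt2 was 0.17 (95% interval -0.02 to 0.36, adjusted p = 0.337, limma). With the mean of probe sets they were smaller, at 0.19 for Akt1 and 0.09 for Akt2. Pik3r5, a regulatory subunit of the PI3K gamma enzyme, differed by -0.33 with no overlap (adjusted p = 0.126, limma). Sgk1, a kinase that also phosphorylates FoxO factors, differed by 0.12 (95% interval -0.24 to 0.48), with 9.81 in Tsc1-/- replicate 1 and 10.53 to 10.72 in the other Tsc1-/- arrays, against 10.19 to 10.55 in WT arrays.

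**Figure D4:**
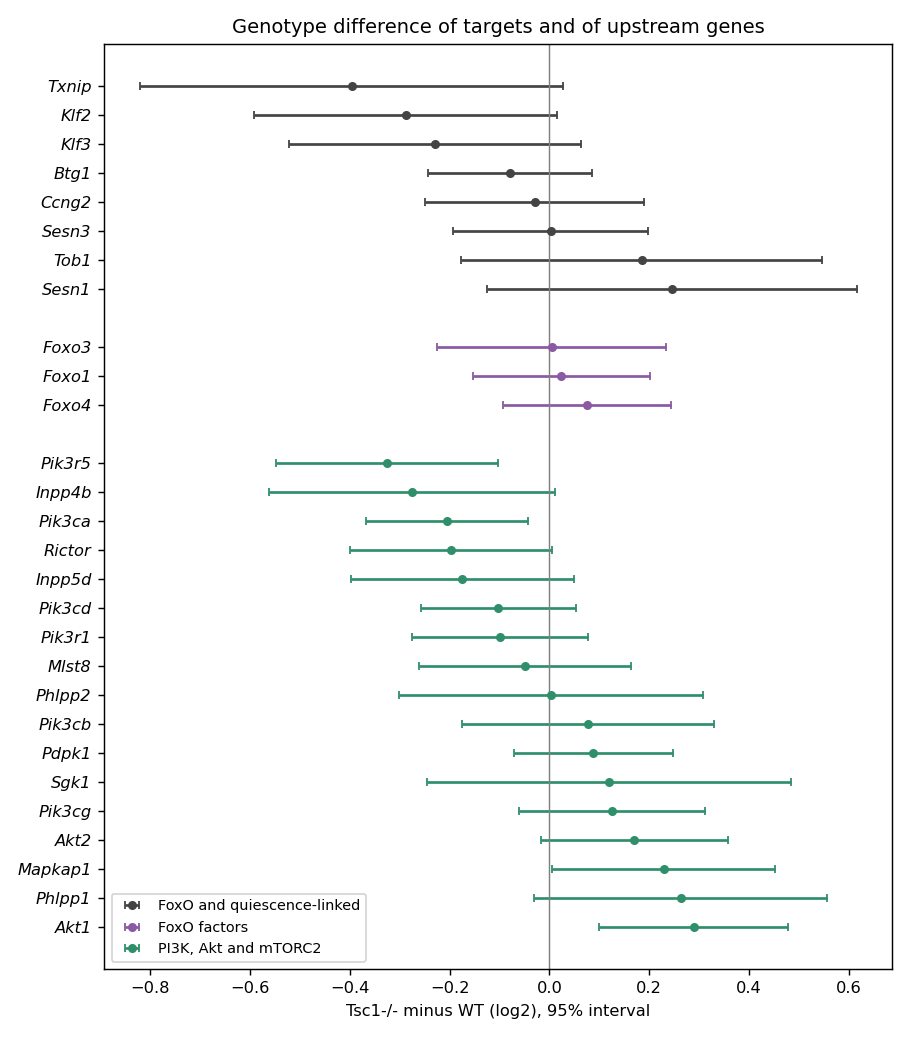
Log2 difference, Tsc1-/- minus WT, with limma's 95% interval, for the 8 measured members, 3 FoxO factors and 17 PI3K, Akt and mTORC2 genes. The intervals of all members and FoxO factors include 0, and those of Akt1, Mapkap1, Pik3ca and Pik3r5 do not, although none passed after adjustment.

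Other genes known as FoxO targets were read from a further list of 25, of which 20 were measured. It holds none of the members but shares some genes, such as Foxo1, with the other lists. Insr, the insulin receptor gene, was the only one to pass, and it fell (1 of 20 lower, against 0.31% of all genes). It read 5.77, 6.08, 6.05, 6.04 and 5.86 in Tsc1-/- replicates 1 to 5, against 6.59, 6.33, 6.52 and 6.41 in WT replicates 1 to 4. The Tsc1-/- arrays lay below all WT arrays, and the difference was -0.50 (SE 0.09, adjusted p = 0.0339, limma). Adjusted for the macrophage marker level it was -0.48 (adjusted p = 0.293, limma), in a fit that called 0 of all 17097 genes. Insr lost the threshold in 11 of 20 alternatives, some of which called few or 0 genes of the whole array. Its level in every Tsc1-/- array and in WT replicate 2 lay below the median gene level of 6.34. The alternative without dim genes, where Insr passed, kept it only through its WT mean of 6.46, against 5.96 in Tsc1-/- cells. A pair of cell cycle brakes, chosen after their values were seen, had differences of opposite sign. Cdkn1b, which encodes p27, differed by -0.26 (SE 0.08, adjusted p = 0.112, limma), and Cdkn1a, which encodes p21, by 0.52 (SE 0.13, adjusted p = 0.0703, limma). Cdkn1b passed in 2 and Cdkn1a in 3 of 20 alternatives. The 20 genes had a median difference of 0.03. At an unadjusted p under 0.05, 4 of the 20 were lower and 1 higher (limma), where 17.2% of all genes reach this level in either direction.

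Of 23 other measured genes linked to quiescence, 0 passed, and 14 were lower and 9 higher on average, with a median of -0.08. Some of them, such as Cdkn1b, are also in the list of other FoxO targets. At an unadjusted p under 0.05, 8 of them were lower and 0 higher, where 17.2% of all genes reach this level in either direction. The smallest p-values were those of Klf4 and Lef1. Klf4, a relative of Klf2 that restrains proliferation, differed by -0.91 (SE 0.22, adjusted p = 0.0661, limma) and by -0.40 when adjusted for the macrophage marker level. Lef1, a factor of naive and memory T cells, differed by -0.43 (SE 0.11, adjusted p = 0.0707, limma) with no overlap, and by -0.52 when so adjusted. Klf4 passed in 5 and Lef1 in 2 of 20 alternatives.

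Relatives and partners of the members were measured as families, and the families named here include the members themselves. In the Kruppel-like family, Klf2 and Klf3 included, 11 of 14 measured genes were lower on average, with a median of -0.13, and 0 passed. Of all 17097 genes, 8848 were lower on average. Klf10, which is induced by TGF-beta signalling, differed by 0.58 (SE 0.15, adjusted p = 0.0755, limma). Among 15 BTG/TOB and CCR4-NOT genes, Btg1 and Tob1 included, the median was -0.01 and 0 passed. Btg3 differed by 0.39 (adjusted p = 0.0881, limma) and the deadenylase subunit Cnot9 by 0.33 (adjusted p = 0.0738, limma). Of the 10 sestrin and GATOR genes, Sesn1 and Sesn3 included, 0 passed. Sec13, a GATOR2 subunit that also coats secretory vesicles, differed by 0.30 with no overlap (adjusted p = 0.0680, limma).

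In the list of 12 arrestin-domain and thioredoxin genes, which includes Txnip, 0 passed, 7 were higher and 5 lower on average, and the median was 0.03. The smallest p-values were those of Txn1 and Txnrd1, both with positive differences. Txn1, thioredoxin itself, read 11.73 to 11.86 in Tsc1-/- cells and 11.36 to 11.56 in WT cells, a difference of 0.33 (SE 0.07, adjusted p = 0.0526, limma). Txnrd1, the reductase that recharges it, differed by 0.31 (SE 0.08, adjusted p = 0.0609, limma), and neither overlapped. Txn1 passed in 5 and Txnrd1 in 6 of 20 alternatives. In the homing list, which holds 7 measured genes, Cxcr3 differed by -0.29 (adjusted p = 0.223, limma) and Itgb7 by 0.18 (adjusted p = 0.256, limma), and 0 passed. Among 8 cyclin G and PP2A genes, Ccng2 included, 0 passed. Ccng1 and Ppp2r5d had the smallest p-values, at differences of 0.15 and 0.16. The Klf3 corepressor genes Ctbp1 and Fhl3 differed by 0.05 and -0.04, with 0 of 3 past the threshold.

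The proliferation markers are genes of DNA replication and mitosis. All 17 measured markers were higher on average in Tsc1-/- cells, with a median of 0.71, and 4 rose past the threshold, against 0.971% of all genes. Cdk1 rose by 0.73, Top2a by 0.67, Aurkb by 0.77 and Mcm2 by 0.81 (adjusted p = 0.0322 to 0.0466, limma), and each lost the threshold in 9 to 14 of 20 alternatives. Some of these alternatives called few or 0 genes of the whole array. Cdk1, the mitotic kinase, read 9.08, 8.83, 8.85, 8.89 and 9.07 in Tsc1-/- replicates 1 to 5, against 7.92, 7.99, 8.46 and 8.48 in WT replicates 1 to 4. The lowest Tsc1-/- array lay above the highest WT array. A difference between these markers and the members was not tested.

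**Figure D5:**
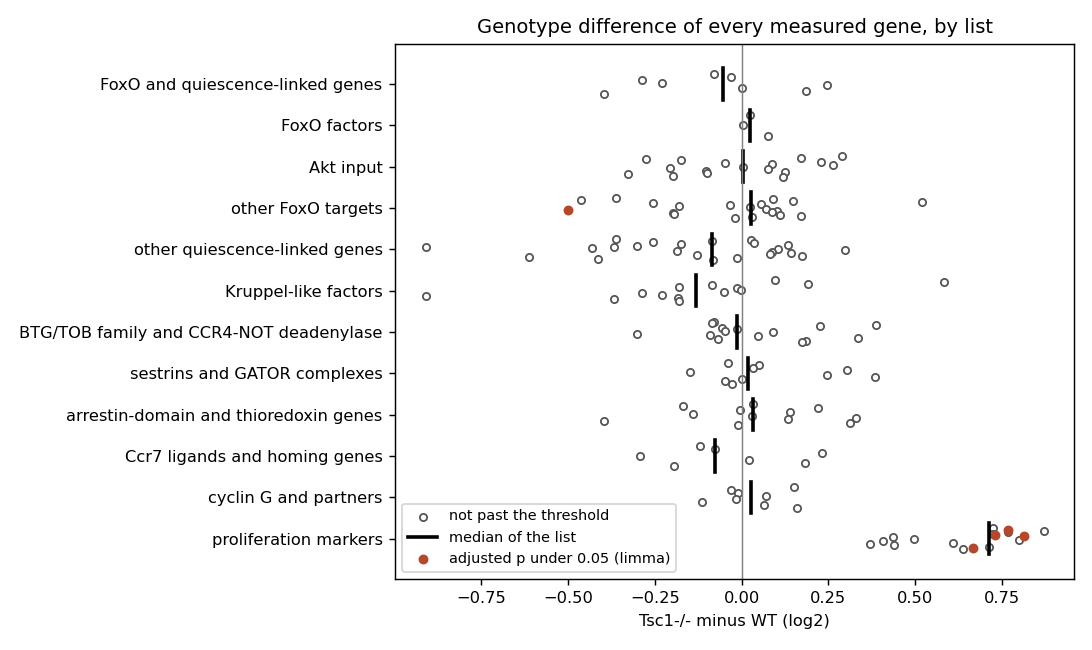
Log2 difference, Tsc1-/- minus WT, of every measured gene by list (some genes are in several lists), with the list's median as a black line and genes past an adjusted p of 0.05 (limma) filled. The 8 members have none filled, Insr is filled among the other FoxO targets, and 4 proliferation markers are filled.

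Tsc1, the targeted gene, differed by -0.26 by its brightest probe set, at 83.3% of the WT level in Tsc1-/- cells, with no overlap between genotypes (adjusted p = 0.114, limma). Its exact permutation p of 0.00794 is the lowest that splits of these arrays allow. The other Tsc1 probe sets differed by -0.01, with overlap, and by -0.32. Where they lie relative to the deleted exons was not analysed here. The defining T cell genes were bright in all arrays, with Cd3e at 11.82 in Tsc1-/- and 11.81 in WT cells and Cd8a at 12.10 in Tsc1-/- and 12.08 in WT cells on average. Markers of other spleen cells were also read. The mean level of 13 macrophage and monocyte markers was 6.25 to 6.66 in Tsc1-/- arrays, against 6.37 in WT replicate 4 and 7.09 to 7.26 in WT replicates 1 to 3, and 12 of 13 were lower on average in Tsc1-/- cells. The mean level of 9 B cell markers was 5.40 to 5.94 in Tsc1-/- arrays, 5.71 in WT replicate 4 and 6.04 to 6.26 in WT replicates 1 to 3. For dendritic cell markers it was 7.49 to 8.13, 7.84 and 8.29 to 8.44 in the same order. For NK cell markers it was 6.10 to 6.61, 6.37 and 6.65 to 6.83. On average 8 of 9 B cell, 8 of 8 dendritic cell and 4 of 5 NK cell markers were lower in Tsc1-/- cells. Among these other-cell markers, only Eomes of the NK list passed and it fell, by 0.58 (adjusted p = 0.0359, limma). Eomes, also a factor of memory CD8+ T cells, lost the threshold in 10 of 20 alternatives (adjusted p up to 0.358, limma). Some of these called few or 0 genes of the whole array. Neutrophil markers spanned 5.99 to 8.36 in Tsc1-/- arrays and 6.97 to 7.91 in WT arrays, erythroid markers 6.24 to 7.70 in Tsc1-/- arrays and 6.59 to 7.15 in WT arrays, and CD4 T cell markers 6.82 to 6.97 in Tsc1-/- arrays and 6.82 to 6.94 in WT arrays. Adjusted for the macrophage marker level, Klf2 differed by -0.31, Txnip by -0.39, Klf3 by -0.17 and Sesn1 by 0.10, with an adjusted p of 0.646 or higher for every member (limma). Adjusted for the B cell marker level, Klf2 differed by -0.34, Txnip by -0.50, Klf3 by -0.23 and Sesn1 by 0.11, with an adjusted p of 0.527 or higher for every member (limma). Both of these adjusted fits called 0 of all genes. The part of the dendritic, NK, neutrophil, erythroid and CD4 T cell markers in the members' values was not tested.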

How the data were processed

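Total RNA (12 ng per sample, per the labels) from 5 Tsc1-/- and 4 WT samples was read on 1 array each. The authors deposited log2 expression values per probe set from RMA, and the submitters' processing notes also name Partek 6.5. RMA gives all arrays a common distribution, which hides any shift common to most genes. The options used for RMA were not stated in these sources. Array medians were 5.97 to 6.05 over 45037 probe sets, and Pearson's r over all probe sets was 0.987 to 0.991 within and 0.982 to 0.990 between genotypes.

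The platform annotation gave 1 gene for 28898 probe sets and several for 551, which were not used, and 15588 had no listed gene here. Entrez identifiers were matched to RefSeq symbols (GRCm38.p6) for 28689. The fit of limma 3.58.1 (lmFit, eBayes, R 4.3.3) took genotype as its only term over 17097 genes, two-sided, with Benjamini-Hochberg adjustment and a threshold of 0.05. Exact permutation tests used all 126 splits. The fit was tested on simulated data. Figures were drawn in Python 3.11.15.

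The members, lists and tests were chosen with earlier results of these data known, so no list has a p-value. Named were Tsc1, the members, the FoxO, Akt and Sgk1 genes, Cd3e and Cd8a, per list up to 4 genes past the threshold or otherwise the 2 with the smallest p, and per member the 3 most alike genes. Marker genes that this rule allows (the 2 largest differences per marker list) are left out except Eomes, and Cdkn1a and Cdkn1b were added after their values were seen. Alternatives were the mean of probe sets, separate probe sets, no dim genes, quantile normalization, median centring, a variance trend with robust fitting, array weights, a block on replicate number, macrophage or B cell marker level as covariates, and leaving out arrays.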

Additional observations from a re-analysis of the deposited data

Results flagged for a closer look

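Among 82 groups of 4 or 5 arrays, those of the members and of the other genes whose differences are given, 6 values stood far from the rest of their group, where chance gives about 1 in 20 groups. Of the 16 groups of the members, 1 was so marked. Klf3 in Tsc1-/- replicate 1 was 10.62, with the next array at 11.18. In the same array Sgk1 was low, at 9.81 with the next at 10.53, and Txnrd1 was high, at 9.55 with the next at 9.44. Btg3 was low in Tsc1-/- replicate 4, at 8.05 with the next at 8.37. Sec13 was low in WT replicate 4, at 8.75 with the next at 8.89. Eomes was high in WT replicate 1, at 8.91 with the next at 8.62.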

How the results depend on the processing

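In all 20 alternatives 0 members passed the threshold, and their median difference stayed between -0.13 and -0.01. With separate probe sets, 3 of 20 had an unadjusted p under 0.05 (limma), against 16% of all probe sets. In the other alternatives 0 to 2 of 8 members did, and the share of all genes there was not counted. Some alternatives called few or 0 of all genes, as given below, so a count of 0 members there was nearly fixed in advance. Klf2, Txnip, Klf3 and Btg1 were negative and Sesn1 positive in all 20. The other 3 members and some other genes changed sign, Sesn3, Ccng2 and the FoxO genes with differences near 0, and Tob1 (0.18), Sgk1 (0.12) and Ppp2r5d (0.16) only with a marker level as covariate. With the mean of probe sets, Sesn3 was -0.070, Ccng2 0.044 and Foxo4 -0.024. With quantile normalization, Sesn3 was -0.070, Foxo1 -0.031, Foxo3 -0.056, Ctbp1 -0.018 and Cd3e -0.023. With array weights, Sesn3 was -0.015 and Ccng2 0.0013. With the macrophage marker level, Tob1 was -0.042, Foxo4 -0.054, Sgk1 -0.019, Fhl3 0.031 and Ppp2r5d -0.0029. With the B cell marker level, Tob1 was -0.072, Foxo4 -0.027, Sgk1 -0.054 and Fhl3 0.042. Without WT replicate 4 and Tsc1-/- replicate 1 together, Sesn3 was -0.043, Ccng2 0.056 and Foxo1 -0.024. Leaving out 1 array at a time gave -0.051 to 0.056 for Sesn3, -0.071 to 0.055 for Ccng2, -0.0090 to 0.060 for Foxo1, -0.068 to 0.063 for Foxo3 and -0.20 to 0.046 for Fhl3. The cause was not tested. With the replicate number as a block, Sesn3 was -0.040, Fhl3 0.0057, Klf2 -0.32 and the members' median -0.08, and limma called 0 of all genes. Deviations of same-numbered arrays correlated at -0.098 to 0.093 and 1 of 4 WT arrays correlated best with its own number, so the numbers were not taken as pairs. Calls over all genes, 219 in the main setting, ranged between 0 and 694. They were 0 with the replicate block and with either marker level as covariate. Leaving out WT replicate 1, WT replicate 2, Tsc1-/- replicate 2 or Tsc1-/- replicate 5 gave 2, 3, 8 and 2 calls. In such settings loss of the threshold was nearly fixed for any gene. Of the genes that did not pass in the main setting, Tsc1 and Cnot9 passed in 1 alternative each, Lef1, Btg3, Sesn2 and Cdkn1b in 2, Cdkn1a and Sec13 in 3, Klf10 in 4, Klf4 and Txn1 in 5 and Txnrd1 in 6, all with the same sign.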
